A study of Mus musculus with 8 samples.

Results

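The mRNAs of 10 enzymes of serine synthesis and of folate-bound one-carbon metabolism were followed in mouse embryonic fibroblasts (MEFs) exposed to RHPS4, a ligand of G-quadruplexes, the stacked folds that guanine-rich nucleic acids can form. The set was chosen by name, as the enzymes of these pathways, and not by a threshold on measured values. Earlier results of these data were known when it and the gene lists below were chosen. Their shares of called genes beside those of all genes are therefore descriptive. The set held the serine synthesis enzymes Phgdh, Psat1 and Psph, the cytosolic folate enzymes Shmt1 and Mthfd1, and the mitochondrial folate enzymes Shmt2, Mthfd2, Mthfd2l, Mthfd1l and Aldh1l2. These are 10 of the 24460 genes counted, and all 10 were tested.

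Serine is made in the cytosol from a glycolytic intermediate by 3 steps: Phgdh oxidises 3-phosphoglycerate, Psat1 transfers an amino group and Psph removes the phosphate. Serine hydroxymethyltransferase then moves a one-carbon unit from serine onto tetrahydrofolate, as Shmt1 in the cytosol and as Shmt2 in mitochondria. Inside mitochondria, Mthfd2 or Mthfd2l oxidises the folate-bound unit to the formyl level. Mthfd1l releases it as formate, which can leave the organelle, while Aldh1l2 oxidises it to carbon dioxide and yields NADPH. In the cytosol, the single protein Mthfd1 carries the activities that mitochondria divide between Mthfd2 or Mthfd2l and Mthfd1l. Proliferating cells use these units for purine and thymidylate synthesis, and several of the enzymes are textbook targets of the transcription factor Atf4.

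RNA was sequenced from subconfluent wild-type MEFs grown with 25 mM glucose, pyruvate and glutamine, at 0 µM (n = 3), 2 µM (n = 3) and 10 µM (n = 2) RHPS4. The labels give exposures of 16 or 24 h without saying which applies to these libraries, and they do not say whether replicates were separate cultures, so p-values measure the spread between these libraries, which may be technical. Total counts were between 10455965 and 26688121 per library, and each member had 283 or more counts in every library. Levels are given as CPM, a gene's count scaled to the TMM-adjusted size of its library. Of 12 fibroblast markers, 11 exceeded 1 CPM in every library, and the summed level of the 12 was 14263 to 14713 with 0 µM, 13023 to 13225 with 2 µM and 12620 to 12944 with 10 µM. Summed markers of myoblasts, epithelium, endothelium and leukocytes did not exceed 9.40 CPM for any of these cell types. The share of RNA counts from transcripts encoded by mitochondrial DNA was 13.2% to 14.4% with 0 µM. It was 7.40% to 8.26% with 2 µM and 5.33% to 6.32% with 10 µM, and it does not measure the amount of that DNA. The first 0 µM library stood apart from the other two, with a chi-square per degree of freedom of 18.4 and 24.1 against them, where theirs was 3.63, so values without it are given beside the main results. The same measure was 4.45, 12.6 and 6.67 between the libraries at 2 µM. Between the 2 libraries at 10 µM, on which all results at that dose rest, it was 10.1.

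The sequence upstream of the RefSeq start is shown for the mitochondrial enzymes and their cytosolic counterparts whose ratios are given further on, so that the pairs can be read side by side. The windows of 130 bases are from RefSeq (GRCm38.p6), 5′ to 3′ on the strand of the gene, with CCAAT boxes on either strand (CCAAT or ATTGG) in capitals. They are chr10:127522445-127522574 on the minus strand for Shmt2, chr11:60811266-60811395 on the minus strand for Shmt1, chr6:83317605-83317734 on the minus strand for Mthfd2, chr10:3972945-3973074 on the plus strand for Mthfd1l and chr12:76255102-76255231 on the plus strand for Mthfd1.
Shmt2: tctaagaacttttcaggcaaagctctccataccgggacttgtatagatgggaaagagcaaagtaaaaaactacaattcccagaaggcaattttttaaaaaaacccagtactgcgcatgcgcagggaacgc
Shmt1: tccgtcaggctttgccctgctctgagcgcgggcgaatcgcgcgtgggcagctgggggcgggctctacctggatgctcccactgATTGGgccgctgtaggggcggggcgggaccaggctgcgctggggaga
Mthfd2: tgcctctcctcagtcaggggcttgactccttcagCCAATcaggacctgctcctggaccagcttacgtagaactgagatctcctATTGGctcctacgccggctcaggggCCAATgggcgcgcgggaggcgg
Mthfd1l: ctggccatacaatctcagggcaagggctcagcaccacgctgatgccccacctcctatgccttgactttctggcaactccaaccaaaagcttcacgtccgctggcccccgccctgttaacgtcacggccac
Mthfd1: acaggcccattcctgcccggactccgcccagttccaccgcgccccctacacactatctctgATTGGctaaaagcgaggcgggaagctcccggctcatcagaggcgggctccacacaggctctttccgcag
Mthfd2 held 3 CCAAT boxes in its window, Shmt1 and Mthfd1 held 1 each, and Shmt2 and Mthfd1l held none. In the 250 bases before the start, searched on both strands, CCAAT was present for 6 of the 9 members with an entry (Phgdh, Psat1, Psph, Shmt1, Mthfd1 and Mthfd2) and in 33.9% of all 32851 windows. The GC box GGGCGG was present for 5 of the 9 (Psat1, Psph, Shmt1, Mthfd1 and Mthfd1l) and in 32.7% of all windows. ATTGG can share its last bases with GGGCGG. The core TGATGNAA of the amino acid response element was present for 0 of the 9 and in 3.45% of all windows. With so low a share, 9 genes are too few for a count of 0 to set them apart from other genes. Sequence after the start was not searched.

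At 10 µM, the last enzyme of serine synthesis and 3 of the 5 mitochondrial folate enzymes rose against 0 µM: Aldh1l2 by 3.36-fold, Psph by 2.72-fold, Mthfd2 by 1.80-fold and Shmt2 by 1.74-fold. Neither cytosolic folate enzyme was called, and both were below the 0 µM libraries in both 10 µM libraries. A gene was called at an adjusted p under 0.01 (edgeR quasi-likelihood test, Benjamini-Hochberg over 14296 genes) and a fold change over 1.5. By this rule 4 of the 10 members were higher and 0 were lower, against 1.95% of all tested genes higher and 1.14% lower. The median log2 fold change was 0.43 over the members and 0.02 over all tested genes. Without the minimum fold, 5 members were higher and 1 was lower, against 2.77% and 2.46% of all genes. At 10 µM, 7 members lay above the range of the 0 µM libraries in both libraries, 2 lay below it and Mthfd2l overlapped it, against 22.9% of all genes above and 20.0% below. The calls of Psph, Shmt2, Mthfd2 and Aldh1l2 held without the first 0 µM library, with log2 fold changes of 1.48, 0.88, 0.84 and 1.75. In bulk RNA, more cells that make an mRNA and more of that mRNA per cell cannot be told apart.

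**Figure D1:**
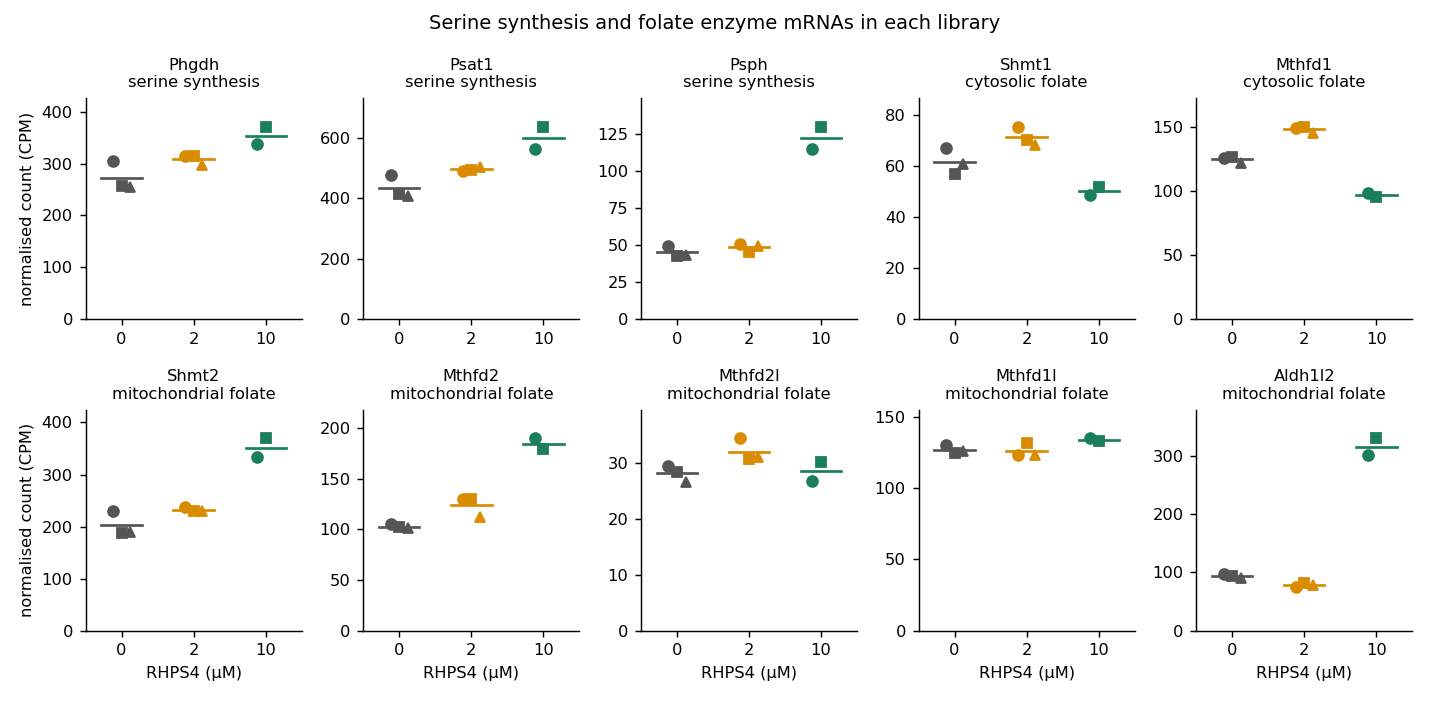
Normalised count (CPM, TMM-scaled) of each member in each library against RHPS4 dose in µM, with horizontal lines at the group means and circles, squares and triangles for replicates 1, 2 and 3. Both 10 µM libraries of Psph (115 and 130), Shmt2 (334 and 369), Mthfd2 (190 and 180) and Aldh1l2 (301 and 329) sit above all others, and those of Shmt1 and Mthfd1 sit below all others.

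The serine synthesis enzymes did not move by equal amounts at 10 µM, and Psph was the only one called. Psph (chr5:129765558-129787449, GRCm38), the phosphatase that completes the pathway, had normalised counts of 49.4, 42.9 and 43.4 CPM at 0 µM. It had 50.9, 45.7 and 49.4 at 2 µM, while at 10 µM it had 115 and 130. The 0 and 2 µM libraries overlapped, and both 10 µM libraries lay far above them. Psph had a log2 fold change of 1.45 ± 0.09 (SE) at 10 against 0 µM (edgeR adjusted p = 5.02e-06) and 0.11 ± 0.09 at 2 against 0 µM (edgeR adjusted p = 0.483), the latter 0.18 without the first 0 µM library. Of the stretches of 75 bases in its transcripts, 8.07% match transcripts of Cct6a, which overlaps Psph on the opposite strand. Cct6a had a log2 fold change of -0.11 at 10 against 0 µM (edgeR adjusted p = 0.442), and whether the counting used strand is not given in the sources used here.

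Psat1 (chr19:15904678-15947337), the aminotransferase of the second step, had 477, 414 and 407 CPM at 0 µM. It had 490, 493 and 504 at 2 µM, while at 10 µM it had 564 and 637. The groups did not overlap and their means were in the order of dose, at 433 ± 38.7 (SD, n = 3), 496 ± 7.04 (SD, n = 3) and 601 ± 51.2 (SD, n = 2). The log2 fold change at 10 against 0 µM was 0.47 ± 0.09 (SE), which passed the adjusted p (0.00607, edgeR) but not the minimum fold, and it was 0.53 without the first 0 µM library. Phgdh (chr3:98313170-98339990), the first and committed enzyme, had 306, 256 and 254 CPM with 0 µM, 315, 314 and 298 with 2 µM, and 337 and 371 with 10 µM. The first 0 µM library reached the 2 µM values, and the 10 µM libraries lay above all others. For Phgdh, the log2 fold change at 10 against 0 µM was 0.38 ± 0.09 (edgeR adjusted p = 0.0206), and without the first 0 µM library it was 0.45 (edgeR adjusted p = 0.00214), still under the minimum fold. Of the stretches of 75 bases in its transcripts, 35.8% occur in annotated transcripts elsewhere, so its uniquely mapped counts are uncertain. Scaling by total counts alone, which moved the median log2 fold change of all genes by 0.21 at 10 against 0 µM, gave 0.60 for Phgdh and 0.69 for Psat1, and both were then called.

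The cytosolic folate enzymes were higher than untreated at 2 µM and lower than untreated at 10 µM in every library, without a call against 0 µM at either dose. Mthfd1 (chr12:76255298-76319803), the trifunctional cytosolic enzyme, had 126, 126 and 122 CPM at 0 µM. It had 149, 150 and 145 at 2 µM, while at 10 µM it had 98.7 and 95.6. The values at the 3 doses did not overlap. Against 0 µM, the log2 fold change of Mthfd1 was 0.25 ± 0.06 (SE) at 2 µM (edgeR adjusted p = 0.0474), and -0.36 ± 0.07 at 10 µM, where the adjusted p passed (0.00698, edgeR) and the fold did not. Between 10 and 2 µM, Mthfd1 fell by 0.61 ± 0.07 on the log2 scale and was called (edgeR adjusted p = 0.000223). It was the only member lower at 10 than at 2 µM by this rule. With total-count scaling the fall was 0.47 on the log2 scale and it was not called.

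Shmt1 (chr11:60788104-60811718), the cytosolic serine hydroxymethyltransferase, had 67.2, 56.8 and 60.9 CPM at 0 µM. It had 75.5, 70.3 and 68.3 at 2 µM, while at 10 µM it had 48.8 and 51.9. As with Mthfd1, the values at the 3 doses did not overlap. Shmt1 had a log2 fold change of 0.21 ± 0.08 (SE) at 2 µM (edgeR adjusted p = 0.154), -0.29 ± 0.09 at 10 µM (edgeR adjusted p = 0.0574), both against 0 µM, and -0.50 ± 0.09 between 10 and 2 µM, where the adjusted p passed (0.00299, edgeR) and the fold did not. With total-count scaling, the log2 fold changes at 10 against 0 µM were -0.07 for Shmt1 and -0.14 for Mthfd1, where the median over all genes was 0.23. Without the first 0 µM library they were -0.25 for Shmt1 and -0.37 for Mthfd1.

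Among the mitochondrial enzymes, Shmt2 and Mthfd2, which take the one-carbon unit from serine and oxidise it, both rose at 10 µM. Shmt2 (chr10:127517123-127522444) had 231, 187 and 189 CPM at 0 µM. It had 238, 230 and 230 at 2 µM, while at 10 µM it had 334 and 369. The first 0 µM library lay within the 2 µM values, and both 10 µM libraries lay above all others. The log2 fold change of Shmt2 at 10 against 0 µM was 0.80 ± 0.10 (SE, edgeR adjusted p = 0.000383). Between 10 and 2 µM it was 0.59 ± 0.10 (edgeR adjusted p = 0.00163), at 1.51-fold barely past the minimum. That call was lost with DESeq2 (0.55) and without replicate 1 (0.56) or 2 (0.57) at 0 µM, replicate 2 (0.58) or 3 (0.56) at 2 µM, or replicate 2 at 10 µM (0.48).

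Mthfd2 (chr6:83305691-83325908), the mitochondrial dehydrogenase and cyclohydrolase, had 105, 102 and 101 CPM at 0 µM. It had 130.1, 129.9 and 112 at 2 µM, while at 10 µM it had 190 and 180. The values at the 3 doses did not overlap. Mthfd2 had a log2 fold change of 0.27 ± 0.08 (SE) at 2 against 0 µM (edgeR adjusted p = 0.0712) and 0.85 ± 0.08 at 10 against 0 µM (edgeR adjusted p = 7.88e-05). Between 10 and 2 µM it was 0.58 ± 0.08, at 1.49-fold just under the minimum fold, with an edgeR adjusted p of 0.000803, and it was called without replicate 1 or without replicate 2 at 2 µM (0.61 each). Mthfd2l (chr5:90931117-91021368), which catalyses the same reactions, had 26.7 to 29.4 CPM with 0 µM, 30.7 to 34.4 with 2 µM, and 26.8 and 30.1 with 10 µM. Its 10 µM libraries overlapped those at 0 µM and lay just below those at 2 µM, and its log2 fold change at 10 against 0 µM was 0.02 ± 0.10 (edgeR adjusted p = 0.918).

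The 2 members that use the mitochondrial formyl group differed. Aldh1l2 (chr10:83487450-83534140), which oxidises it to carbon dioxide, had 96.8, 93.7 and 91.0 CPM at 0 µM. It had 75.7, 81.3 and 78.7 at 2 µM, while at 10 µM it had 301 and 329. Every 2 µM library lay below, and both 10 µM libraries far above, the 0 µM libraries. The log2 fold change of Aldh1l2 was -0.26 ± 0.07 (SE) at 2 against 0 µM (edgeR adjusted p = 0.0636), 1.75 ± 0.07 at 10 against 0 µM (edgeR adjusted p = 4.22e-07) and 2.00 ± 0.08 between 10 and 2 µM (edgeR adjusted p = 1.03e-07). Exons of D10Wsu102e overlap Aldh1l2 on the opposite strand and share 12.8% of its stretches of 75 bases. D10Wsu102e itself was lower at 10 µM, with 48.3 ± 1.88 (SD, n = 2) against 75.7 ± 3.56 (SD, n = 3) CPM at 0 µM and a log2 fold change of -0.65 (edgeR adjusted p = 0.000351).

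Mthfd1l (chr10:3973118-4167081), which releases formate, had 130.1, 124.9 and 126 CPM with 0 µM, 123.1, 132 and 123.5 with 2 µM, and 135 and 133 with 10 µM. Its values lay within a narrow band at all 3 doses, although both 10 µM libraries were above the 0 µM range. The log2 fold change was -0.01 ± 0.06 (SE) at 2 µM (edgeR adjusted p = 0.959) and 0.08 ± 0.07 at 10 µM (edgeR adjusted p = 0.495), both against 0 µM.

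**Figure D2:**
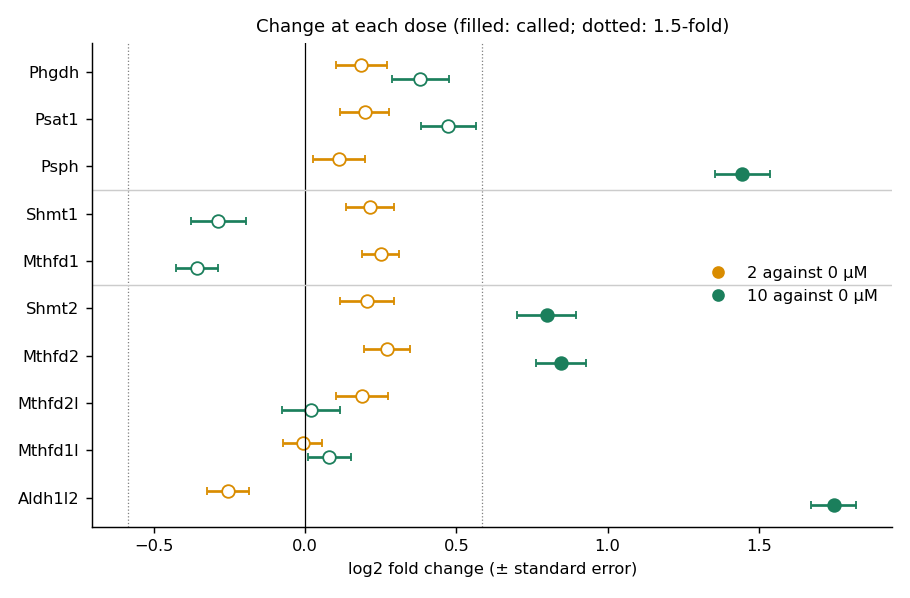
Log2 fold change (± standard error, edgeR) of each member at 2 µM (orange) and 10 µM (green) against 0 µM, with filled points for called genes and dotted lines at a 1.5-fold change. Psph, Shmt2, Mthfd2 and Aldh1l2 are called at 10 µM, at 0.80 to 1.75, and no member is called at 2 µM.

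At 2 against 0 µM, 0 of the 10 members were called by edgeR and 0 by DESeq2, and 7 of the 10 had an unadjusted edgeR p under 0.05, where 21.3% of all tested genes did. Of all tested genes, 0.119% were called higher and 0.378% lower. The members' log2 fold changes lay between -0.26 for Aldh1l2 and 0.27 for Mthfd2, with a median of 0.19 where that over all genes was -0.01. Psat1, Shmt1, Mthfd1, Mthfd2 and Mthfd2l lay above the 0 µM range in every 2 µM library and Aldh1l2 lay below it, against 12.7% of all genes above and 12.9% below. Without the first 0 µM library no member was called either, and the log2 fold changes of Phgdh (0.28), Psph (0.18) and Shmt2 (0.31) were more than 1.5 times those with it.

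The dose comparison of 10 with 2 µM asked whether the higher dose differed from the lower one. Aldh1l2, Psph and Shmt2 were higher and Mthfd1 was lower, so 3 members were called higher and 1 lower, against 3.92% of all genes higher and 1.59% lower. Without the minimum fold these counts were 4 and 2, since Mthfd2 and Shmt1 were added, against 5.63% and 5.13%. Shmt1, Mthfd1 and Aldh1l2 had their 2 and 10 µM libraries on opposite sides of the 0 µM range, 3 of 10 members where 7.38% of all tested genes did so.

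Counts of a mitochondrial enzyme were then divided by those of its cytosolic counterpart within each library, where the scaling between libraries cancels. These ratios are not corrected for transcript length, so only their differences between doses are compared. For Shmt2 over Shmt1, the log2 ratio of counts was 1.78, 1.72 and 1.64 with 0 µM, 1.66, 1.71 and 1.75 with 2 µM, and 2.77 and 2.83 with 10 µM. The 0 and 2 µM ratios overlapped, and both 10 µM ratios were above them by a mean difference of 1.09, or 2.13-fold, against 0 µM. For Mthfd2 over Mthfd1, it was -0.25, -0.31 and -0.27 with 0 µM, -0.20, -0.21 and -0.37 with 2 µM, and 0.94 and 0.91 with 10 µM. Again the 0 and 2 µM ratios overlapped, and both 10 µM ratios were above them, by a mean difference of 1.20, or 2.30-fold, against 0 µM. For Mthfd1l over Mthfd1, it was 0.05, -0.01 and 0.05 with 0 µM, -0.28, -0.19 and -0.23 with 2 µM, and 0.45 and 0.48 with 10 µM. This ratio was lower at 2 µM by 0.26 and higher at 10 µM by 0.44 than at 0 µM, with no overlap in either case, and Mthfd1l itself was not called at either dose.

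The spread of these ratios within a dose was small, with a pooled SD of 0.03 to 0.08 on the log2 scale over the 9 comparisons. A two-sided exact permutation test gave p = 0.2 for each of the 6 comparisons with the 2 libraries at 10 µM, the smallest p this design allows, and p = 0.1 for Mthfd1l over Mthfd1 at 2 against 0 µM, the smallest for 3 against 3 libraries. After Benjamini-Hochberg adjustment over the 9 comparisons these were all 0.257, so none could pass 0.05. At 2 against 0 µM, the ratio of Shmt2 to Shmt1 differed by -0.005 and that of Mthfd2 to Mthfd1 by 0.02, each with an exact permutation p of 0.9. Without the first 0 µM library, the differences at 10 against 0 µM were 1.12 for Shmt2 over Shmt1, 1.21 for Mthfd2 over Mthfd1 and 0.45 for Mthfd1l over Mthfd1, and that of Mthfd1l over Mthfd1 at 2 against 0 µM was -0.25.

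**Figure D3:**
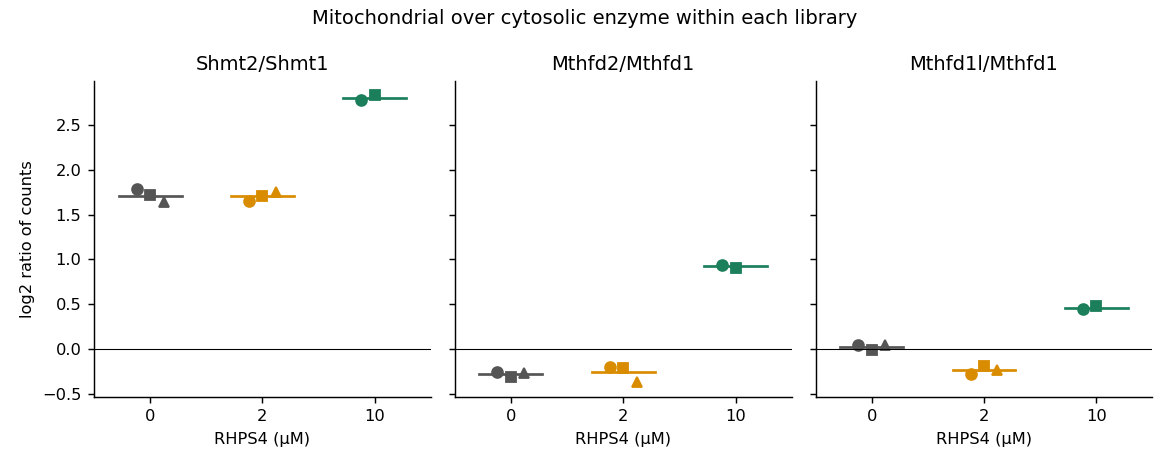
Log2 ratio of the counts of a mitochondrial enzyme to those of its cytosolic counterpart in each library, against RHPS4 dose in µM, with horizontal lines at the group means and symbols for replicates 1 to 3. The 2 libraries at 10 µM lie above all others in each panel, and for Mthfd1l over Mthfd1 the 2 µM libraries lie below those at 0 µM.

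A few further ratios within the set were chosen after their values were seen and were not tested. The log2 ratio of Aldh1l2 to Mthfd1l, the members that use the mitochondrial formyl group, was -0.44 ± 0.03 (SD, n = 3) with 0 µM. This ratio was -0.68 ± 0.03 (SD, n = 3) with 2 µM and 1.23 ± 0.11 (SD, n = 2) with 10 µM. That of Mthfd2 to Mthfd2l was 1.87 ± 0.05, 1.95 ± 0.12 and 2.70 ± 0.18 in the same order. That of Psph to Phgdh, the last and the first enzyme of serine synthesis, was -2.59 ± 0.04, -2.67 ± 0.10 and -1.53 ± 0.03.

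Sums over each group of enzymes were taken as CPM over the total of nuclear gene counts alone, without TMM scaling. They are therefore not on the scale of the CPM values given above. For serine synthesis enzymes they were 766 to 896 with 0 µM, 914 to 930 with 2 µM and 1180 to 1321 with 10 µM. They were 581 to 638, 618 to 657 and 1144 to 1210 for the mitochondrial folate enzymes, and 199 to 208, 229 to 244 and 171 in both libraries for the cytosolic ones. The 10 members together took 0.134% to 0.149% of all counts with 0 µM, 0.162% to 0.169% with 2 µM and 0.234% to 0.256% with 10 µM. The counts of mitochondrially encoded transcripts are part of that total. Their share, given above, was lower at each higher dose, and its part in the share of the members was not tested.

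Levels were compared between genes per kilobase of merged exons (GENCODE M21, GRCm38). These lengths include every annotated exon, whether or not these cells use it, and the counts of Phgdh are uncertain, as given above. The order between genes is therefore approximate. At 0 µM the mean level per kilobase was highest for Phgdh (109 CPM per kilobase) and Psat1 (102), whose libraries overlapped, followed by Shmt2 (65.1). Mthfd2 (29.5), Mthfd1l (28.6) and Mthfd1 (28.0) came next, with each overlapping the next in that order. Shmt1 (15.9), Aldh1l2 (12.5), Psph (10.4) and Mthfd2l (4.24) followed without overlap. At 10 µM the level of Aldh1l2 was 42.0 and ranked 5 among the members, where it had ranked 8 at 0 µM. Psph, at 28.4, ranked 7 and overlapped Mthfd1l at 30.2, while Mthfd1 (21.9), Shmt1 (13.0) and Mthfd2l (4.28) were the lowest.

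Of 34 other genes of serine, glycine and folate metabolism listed by name, 28 had counts high enough to test, and 2 of these were called higher and 0 lower at 10 than at 0 µM, against 1.95% and 1.14% of all tested genes. Both are amino acid transporters. Slc6a9, a glycine transporter, had 23.4, 31.4 and 30.3 CPM with 0 µM, 24.0, 23.2 and 23.7 with 2 µM, and 71.2 and 66.8 with 10 µM. Its log2 fold change at 10 against 0 µM was 1.27 ± 0.11 (SE, edgeR adjusted p = 3.51e-05), or 1.14 without the first 0 µM library, and both 10 µM libraries were above all others. Slc1a4, which carries serine and other small neutral amino acids, had 98.8, 80.7 and 86.9 with 0 µM, 78.8, 79.2 and 82.3 with 2 µM, and 126 and 143 with 10 µM. Its log2 fold change at 10 against 0 µM was 0.60 ± 0.09 (edgeR adjusted p = 0.00204), and it was no longer called with DESeq2 (0.57) or without replicate 2 at 10 µM (0.48), replicate 2 at 0 µM (0.52) or replicate 3 at 0 µM (0.59). The median log2 fold change over the 28 genes was 0.10 at 10 against 0 µM, and over all tested genes it was 0.02.

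Tyms and Gart, cytosolic genes that spend one-carbon folates, had their highest means at 2 µM and their lowest at 10 µM. Tyms, which makes thymidylate, was at 135 ± 13.2 CPM (SD, n = 3) with 0 µM, 158 ± 5.92 (SD, n = 3) with 2 µM and 114 ± 9.10 (SD, n = 2) with 10 µM. Gart, a purine synthesis enzyme that uses formyl folate, was at 128 ± 3.39, 157 ± 1.59 and 115 ± 7.02 in the same order. At 10 against 0 µM neither was called, with log2 fold changes of -0.23 for Tyms and -0.15 for Gart. With total-count scaling these were -0.01 for Tyms and 0.06 for Gart. Srr, which converts L-serine to D-serine, was higher at 10 than at 2 µM by 0.60 ± 0.09 (SE) on the log2 scale (edgeR adjusted p = 0.00135), and it was not called with DESeq2 (0.56) or without replicate 1 (0.56) or 2 (0.57) at 0 µM, replicate 3 at 2 µM (0.56) or replicate 1 at 10 µM (0.46). With Slc6a9 (1.55) and Slc1a4 (0.75), 3 of the 28 genes were higher and 0 were lower at 10 than at 2 µM, against 3.92% and 1.59% of all tested genes. At 2 against 0 µM, 0 of the 28 were called by edgeR and 0 by DESeq2, and 11 had an unadjusted edgeR p under 0.05, where 21.3% of all tested genes did.

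The mitochondrial partners of the folate enzymes were not called at either dose. Slc25a32, which carries folate into mitochondria, had a log2 fold change of 0.21 ± 0.07 (SE) at 2 µM and -0.11 ± 0.08 at 10 µM against 0 µM. Mtfmt, which formylates the mitochondrial initiator tRNA, had 0.11 ± 0.13 and 0.19 ± 0.14. Gldc, the glycine-cleaving decarboxylase, was near the lower limit of the test at 12 to 28 counts per library. Aldh1l1, the cytosolic counterpart of Aldh1l2, had 2 to 23 counts per library, and a difference between doses was not detectable at this depth.

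**Figure D4:**
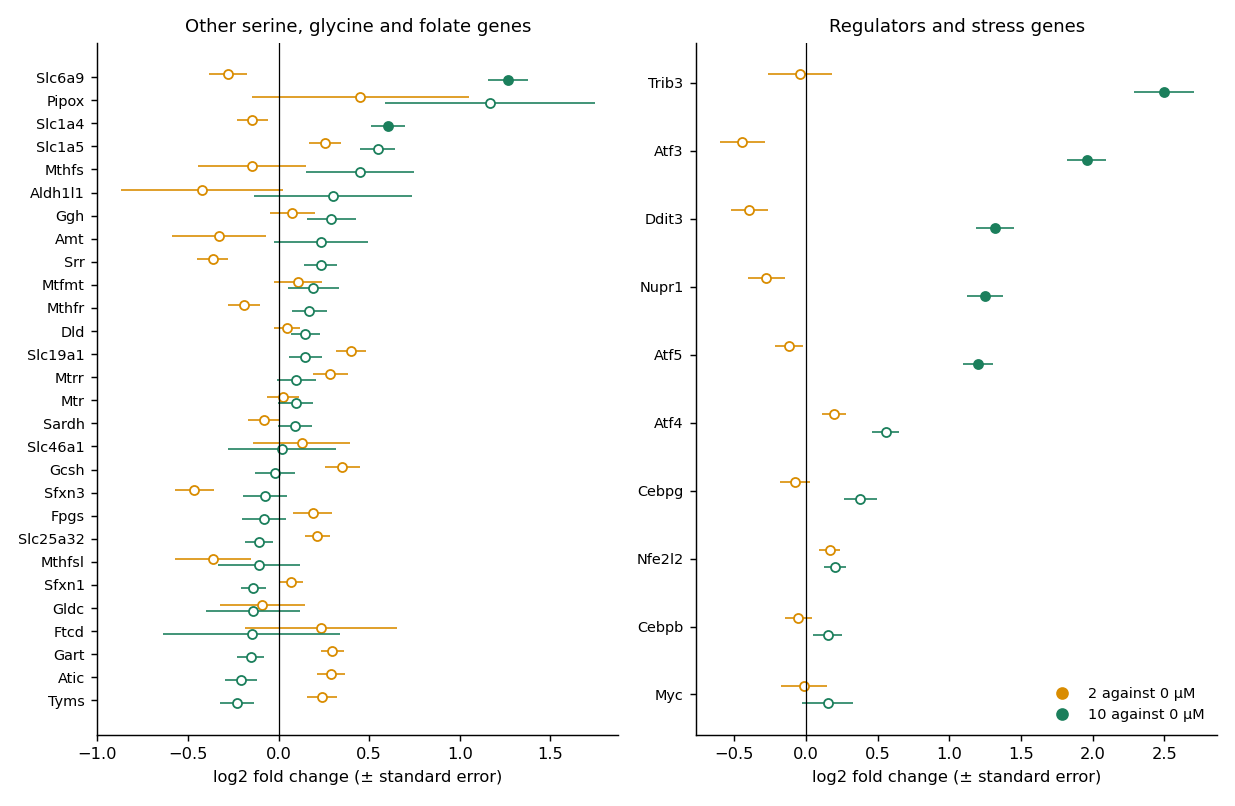
Log2 fold change (± standard error, edgeR) at 2 µM (orange) and 10 µM (green) against 0 µM for the 28 tested pathway genes outside the set (left) and 10 regulators and stress genes (right), with filled points for called genes. Slc6a9 and Slc1a4 are called on the left, and Atf3, Atf5, Ddit3, Nupr1 and Trib3 on the right, all at 10 µM.

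Of 10 regulators and stress genes listed by name, 5 were higher at 10 µM than at 0 µM and 0 were lower, against 1.95% and 1.14% of all tested genes. Trib3, a pseudokinase that restrains Atf4, had 11.1, 7.0 and 10.7 CPM with 0 µM, 7.5, 8.7 and 11.1 with 2 µM, and 42.9 and 64.2 with 10 µM. The log2 fold changes at 10 against 0 µM were 2.495 ± 0.21 (SE) for Trib3, 1.96 ± 0.13 for Atf3, 1.32 ± 0.13 for Ddit3, 1.25 ± 0.12 for Nupr1 and 1.20 ± 0.10 for Atf5, all genes of the integrated stress response, with edgeR adjusted p between 7.92e-06 and 9.47e-05. Atf4 itself had 343, 285 and 280 CPM with 0 µM, 363, 334 and 340 with 2 µM, and 450 and 439 with 10 µM. Its log2 fold change of 0.56 ± 0.09 at 10 against 0 µM passed the adjusted p (0.00326, edgeR) and not the minimum fold, and without the first 0 µM library it was 0.63 and called. Like Aldh1l2, Atf3 (-0.44 ± 0.16), Ddit3 (-0.40 ± 0.13) and Nupr1 (-0.28 ± 0.13) had log2 fold changes below 0 at 2 against 0 µM. Trib3 (-0.04 ± 0.22) and Atf5 (-0.12 ± 0.10) were nearer to no change, and Atf4 (0.19 ± 0.08) was above 0. So were Psph (0.11), Shmt2 (0.20) and Mthfd2 (0.27), the other members called at 10 µM. None of these genes was called at 2 against 0 µM.

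The mean log2 profile of Shmt2, Mthfd2 and Mthfd1l over the 8 libraries was compared with that of 14260 other nuclear genes. It is an average over unlike members, since at 10 µM the centred log2 values were 0.45 and 0.60 for Shmt2, 0.57 and 0.49 for Mthfd2, and 0.07 and 0.05 for Mthfd1l. The genes closest to this average were Uap1l1, Nars, Dus2, Tars and Yars, with root mean square differences of 0.05 to 0.06 on the log2 scale. Nars, Tars and Yars are cytosolic aminoacyl-tRNA synthetases. The log2 fold changes at 10 against 0 µM were 0.56 for Uap1l1, 0.52 for Nars, 0.53 for Dus2, 0.52 for Tars and 0.48 for Yars. Values this close to each other follow from the ranking, which used the same 8 libraries.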

How the data were processed

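Ribosome-depleted stranded total RNA libraries were sequenced from 8 MEF samples. Per the labels and the study's methods, the authors trimmed reads with Trim Galore and cutadapt, aligned them to mm10 with STAR 2.5.2a and deposited counts of uniquely mapped fragments per gene from featureCounts, whose version and annotation are not given in the sources used here. The deposited counts were fitted with edgeR 4.0.16 (TMM scaling, filterByExpr, quasi-likelihood test) over all 8 libraries with dose as the only factor, and p-values were adjusted by Benjamini-Hochberg over the 14296 genes kept. A call needed an adjusted p below 0.01 together with more than a 1.5-fold change, as in the study, which used DESeq2. DESeq2 1.42.0 was an alternative. CPM values use TMM-scaled library sizes, except the sums over groups of enzymes, which use unscaled totals of nuclear gene counts. Ratios add 0.5 to each count. The fits were tested on simulated data with the same dispersion for every gene and changes of equal size. That test does not cover calls near the minimum fold. For the members, counting error at these depths was not estimated apart from the spread between libraries.

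The members and gene lists were chosen with earlier results of these data known. All members were named, with those pathway genes and regulators that were called in any comparison and a few fixed partners (Aldh1l1, Gart, Tyms, Gldc, Slc25a32, Mtfmt and Atf4). One listed gene is not reported here. Positions and exon lengths are from GENCODE M21, and 9 of the 10 members matched a RefSeq promoter. Alternatives were RLE scaling, TMM over nuclear genes, total counts, no filter, 10 or more counts in every library, DESeq2, the 2 doses alone, a replicate block, other thresholds, 5 added to each count of a ratio, and each library left out.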

Additional observations from a re-analysis of the deposited data

Results flagged for a closer look

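Several genes were picked out because every library at 2 µM lay on one side of the 0 µM libraries and every library at 10 µM on the other, so that the effects of the doses against 0 µM pointed in opposite directions. That rule already sets the 2 and 10 µM libraries of a picked gene apart. The p-values below are therefore no separate test of the picked genes. The difference between the doses is the log2 fold change of 10 against 2 µM, tested with edgeR and adjusted over all genes. Among the members it was -0.50 for Shmt1 (adjusted p = 0.00299), -0.61 for Mthfd1 (adjusted p = 0.000223) and 2.00 for Aldh1l2 (adjusted p = 1.03e-07).

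Among the other genes it was -0.47 for Tyms (edgeR adjusted p = 0.00516), -0.45 for Gart (0.00158) and -0.32 for Slc25a32 (0.0124), all lower at 10 than at 2 µM. It was 0.60 for Srr (edgeR adjusted p = 0.00135), 2.40 for Atf3 (2.07e-06), 1.72 for Ddit3 (1.20e-05) and 1.53 for Nupr1 (2.29e-05), all higher. Outside the rule for named genes, and chosen after their values were seen, Atic, a purine synthesis enzyme, had -0.50 (edgeR adjusted p = 0.00271) and Sfxn1, a mitochondrial serine carrier, had -0.21 (edgeR adjusted p = 0.0471). In all, 3 of the 10 members and 6 of the 28 tested pathway genes were of this kind. Over all tested genes, 7.38% had their 2 and 10 µM libraries on opposite sides. Groups of 2 and 3 libraries were too small for a test of single outlying libraries.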

How the results depend on the processing

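Of 108 counts of called genes recomputed under alternatives, 101 stayed within 1.5 times. The pathway genes called at 10 against 0 µM were 1 with no filter on low counts, with DESeq2 and with the 2 doses alone, and 1 to 2 with each library left out. At 10 against 2 µM they were 6 with no minimum fold change, and 2 to 3 with each library left out. Of 480 members' log2 fold changes, 453 kept their sign and side of the threshold. The sign of Mthfd1l at 2 against 0 µM turned with total counts (0.074), with the 2 doses alone (0.00048) and over the libraries left out (-0.041 to 0.016). Mthfd2l at 10 against 0 µM turned with no filter (-0.021), with DESeq2 (-0.017) and over the libraries left out (-0.094 to 0.073). Shmt2 at 10 against 2 µM lost its call in 9 of 16 alternatives, at 0.48 to 0.58, and Srr in 8. Mthfd2 at 10 against 2 µM was called with total counts (0.71). The alternatives for single pathway genes and regulators were added after seeing the data.

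With total counts, signs turned for Trib3 at 2 against 0 µM (0.038), for Gldc (0.068), Gart (0.062) and Slc25a32 (0.11) at 10 against 0 µM and for Gldc at 10 against 2 µM (0.083). Over the libraries left out, log2 fold changes ranged from -0.23 to 0.078 for Trib3 and from -0.20 to 0.017 for Gldc at 2 against 0 µM, and for Mtfmt from -0.0053 to 0.30 at 10 against 0 µM and from -0.12 to 0.19 at 10 against 2 µM. The ratios at 2 against 0 µM ranged from -0.043 to 0.030 for Shmt2 over Shmt1 and from -0.013 to 0.073 for Mthfd2 over Mthfd1. The other 62 of 66 ratio values kept their sign, which was all that was compared for ratios. The causes were not tested.

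The correlations of the deviations of libraries with the same replicate number were 0.20, 0.08 and 0.16 between 0 and 2 µM, where those with different numbers had -0.15 to 0.06, and were -0.15 and -0.10 between 0 and 10 µM. Between 0 and 2 µM each library thus correlated best with its own number, but not every pair exceeded 0.1, so the numbers were not taken as pairs. With a replicate block, 0, 4 and 3 members were called at 2 against 0, 10 against 0 and 10 against 2 µM, Shmt2 losing its call at 10 against 2 µM (0.57), and the log2 fold change of Mthfd2l at 10 against 0 µM was -0.012. The block gave 54, 322 and 735 calls over all genes.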
